A study of Mus musculus with 5 samples.

Results

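Fc gamma receptors, the cell-surface receptors for immunoglobulin G (IgG), were followed through a lipopolysaccharide (LPS) time course in macrophages. The genes were all those with a symbol beginning with Fcgr, together with Fcer1g, that had a probe naming 1 gene and a value on every array. This gave 4 genes of 8692 measured: Fcgr1 (gene ID 14129), Fcgr2b (14130), Fcer1g (14127) and Fcgrt (14132), on 6 probes. Fcgrt had 3 probes and each of the others had 1. Fcgr3 and Fcgr4 are not analysed here. Fcgrt falls under the symbol rule, but its product is the neonatal Fc receptor and not one of the phagocytic receptors. The macrophages were grown from bone marrow of BalbC mice with human CSF-1, a cytokine that macrophages need to grow. There were 5 cultures with 1 array each: no LPS (0 h), and 0.5, 2, 7 or 21 h in 10 ug/ml of LPS from S. minnesota, with no culture kept without LPS for the later times. Time in culture and LPS therefore cannot be told apart. Each array set macrophage RNA against RNA of C57BL6/J whole embryos of day 17.5, and the embryo RNA cancels in a change between arrays.

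Fc gamma receptors let macrophages bind and engulf particles coated with IgG. Activating receptors such as the one encoded by Fcgr1, the high-affinity receptor CD64, signal through the common gamma chain encoded by Fcer1g, whose phosphorylated tail recruits the kinase SYK. The product of Fcgr2b, CD32B, instead carries an inhibitory motif in its own tail, recruits the phosphatase SHIP1 and dampens the response. Interferon gamma is known to induce Fcgr1, and PU.1 is the transcription factor that marks myeloid promoters.

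The promoters of both receptor genes are shown because their time courses differed, to an extent that depended on the scaling, as described below. Each is the 250 bases before the annotated start, from RefSeq on build GRCm38.p6, on the minus strand, at chr3:96293970-96294219 for Fcgr1 and chr1:170976072-170976321 for Fcgr2b. Both strands were searched for TTCNNNGAA (GAS, the gamma interferon activation site), GAGGAA (the core read by PU.1), TGANTCA (AP-1) and the ISRE and NF-kappaB motifs. Capitals mark every match.
Fcgr1: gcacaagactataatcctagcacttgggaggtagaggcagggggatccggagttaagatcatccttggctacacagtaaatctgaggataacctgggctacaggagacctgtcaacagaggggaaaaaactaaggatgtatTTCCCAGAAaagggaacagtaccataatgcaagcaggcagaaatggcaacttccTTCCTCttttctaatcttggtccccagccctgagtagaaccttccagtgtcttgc
Fcgr2b: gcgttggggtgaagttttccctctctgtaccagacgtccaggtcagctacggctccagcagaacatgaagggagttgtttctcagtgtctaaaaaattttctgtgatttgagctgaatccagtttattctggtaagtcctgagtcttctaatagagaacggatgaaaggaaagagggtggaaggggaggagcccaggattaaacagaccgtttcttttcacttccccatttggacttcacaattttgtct
The Fcgr1 window held 1 GAS match, from -109 to -101 relative to the start, and 1 PU.1 match on the opposite strand, from -55 to -50, with no overlap between them. Of 32851 promoters of this length, 7.02% held a GAS match and 23.3% a PU.1 match. The share was 2.98% for ISRE, 6.75% for AP-1 and 7.25% for NF-kappaB. The windows of Fcgr2b, Fcer1g and Fcgrt held 0 matches to these 5 motifs. A match is a run of letters and not a measured binding site.

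The deposited values are log ratios of unstated base. Changes are therefore given in units of the deposited ratio, and on a base of 2 a unit would stand for 2-fold. Values are given with the median of each array at 0. The direction was read as macrophage over embryo, which is likely and not settled. Macrophage markers (8 of 20 measured) had medians of 0.06, 0.13, 0.32, 0.60 and 0.42 on the arrays in order of time, and embryonic markers (28 of 30) medians of -0.64 to -0.42. Defining macrophage markers went both ways on the 0 h array, with Lyz2 (lysozyme) at 1.18 and Ctss (cathepsin S) at 1.76, but Cd68 at -0.15 and Tyrobp at -0.10. With 1 array per time there was no replicate check and no p-value. As error, the spread between paired probes for 1 gene was taken over 3034 genes, and its SD in the change from 0 h was 0.27, 0.38, 0.23 and 0.23 units after 0.5, 2, 7 and 21 h. A gene is called above or below when its change passed 2 of these SDs, which cover spots and probes but not cultures or labelling. Paired probes of a gene agreed poorly in these changes, with Pearson r of 0.06, 0.10, 0.20 and 0.21 in order of time. The SD of the change over all genes was about as large as the probe SD, at 0.29, 0.37, 0.25 and 0.25 units. A call on 1 probe, as for Fcgr1 and Fcgr2b, is thus a statement on that probe, and a second probe might not repeat it. In RNA of a whole culture, more cells of a type and more RNA per cell cannot be told apart.

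Fcgr1 stood high against the embryo RNA on every array and was higher at 2, 7 and 21 h of LPS than before it. Its ratio was 1.16 before LPS and 1.08, 3.46, 1.92 and 1.92 after 0.5, 2, 7 and 21 h. The 0 h and 0.5 h arrays were thus the low pair, the 2 h array was the highest, and the last 2 arrays lay between. Within its own array Fcgr1 ranked 10 of 8692 genes before LPS, and 214, 2, 4 and 3 on the later arrays. These ranks do not change when an array is shifted or stretched as a whole. The lower rank at 0.5 h went with a heavier upper tail of that array, where 99% of genes lay under 1.61 units, against 0.70 at 0 h and 1.70 at 2 h.

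**Figure D1:**
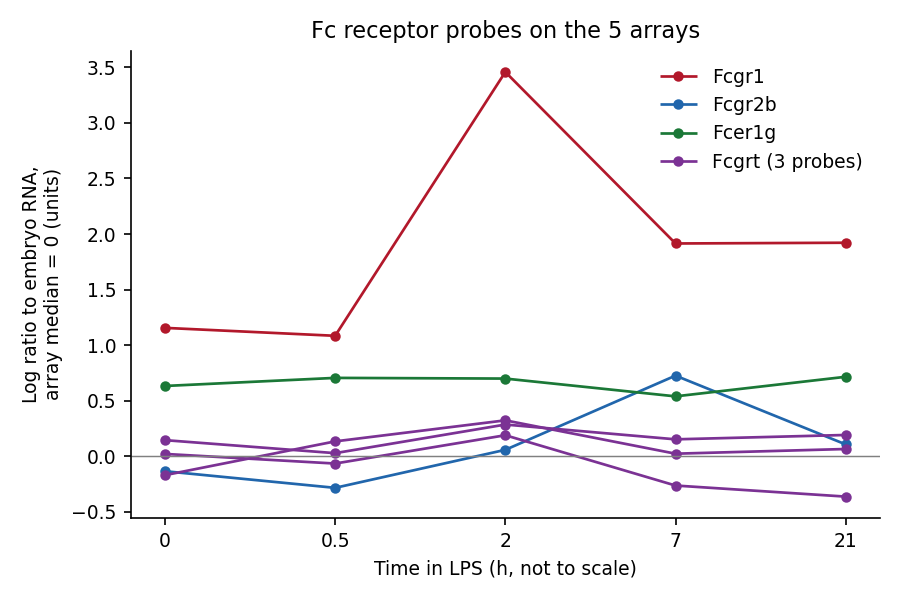
Log ratio to embryo RNA (vertical axis, units of the deposited log ratio, array median at 0) of the 6 probes at 0, 0.5, 2, 7 and 21 h in LPS (horizontal axis, not to scale), 1 line per probe. Fcgr1 peaks at 3.46 on the 2 h array and Fcgr2b at 0.73 on the 7 h array, while Fcer1g stays between 0.54 and 0.72.

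At 0.5 h the change of Fcgr1 from 0 h was -0.07 units, within 2 SD. At 2 h it was 2.30 units, 6.12 times the probe SD and place 24 of 8692 changes. At that time 1 of the 4 genes was above 2 SD, beside 4.84% of all genes (0.23% were below), and Fcgr1 was among the 2.72% that were at least 1 unit higher. At 7 h Fcgr1 was higher by 0.76 units (3.29 SD, place 56) and at 21 h by 0.77 units (3.28 SD, place 75). Both late arrays therefore gave nearly the same value. From 0.5 h to 2 h the step was 2.37 units (7.34 SD, place 8), where 3.76% of genes were above 2 SD and 1.9% below. From 2 h to 7 h the step was -1.54 units (-4.03 SD), where 5.27% of genes were below and 0.529% above. From 7 h to 21 h it was 0.01 units.

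How high Fcgr1 stood at 2 h depended on the scaling. Quantile normalization, which gives every array the same distribution, put the 2 h change at 0.70 units (2.47 SD), and cyclic loess put it at 0.29 (0.97 SD), within 2 SD. It was 2.35 units as deposited. After subtracting a running median along the probe numbering it was 2.21. The negative step from 2 h to 7 h turned to 0.05 units with quantile normalization and 0.33 with cyclic loess, both within 2 SD. The step from 0.5 h to 2 h remained above 2 SD in both settings, at 1.46 and 0.65 units. At 7 h Fcgr1 was above 2 SD in every scaling tried, from 0.62 to 0.76 units. At 21 h it was 1.07 units with quantile normalization and 0.39 with cyclic loess, the latter within 2 SD (1.68). At 0.5 h quantile normalization gave -0.76 units, below 2 SD.

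**Figure D2:**
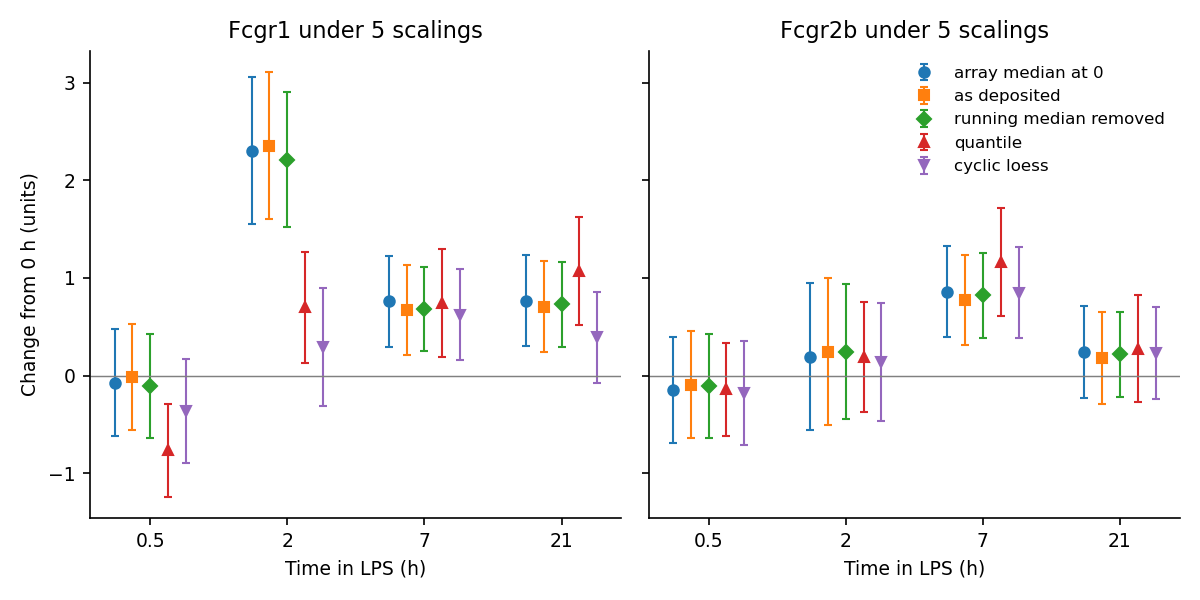
Change from 0 h (vertical axis, units) of Fcgr1 (left) and Fcgr2b (right) at 0.5, 2, 7 and 21 h in LPS under 5 scalings, with bars of 2 probe SDs of that scaling. The 2 h value of Fcgr1 falls from 2.30 to 0.70 (quantile) and 0.29 (cyclic loess), while its 7 h values lie between 0.62 and 0.76 and those of Fcgr2b between 0.77 and 1.16.

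The Fcgr1 probe lay in a stretch of the probe numbering where other probes were also higher at 2 h. Among the 179 measured probes up to 100 numbers away, 16 (8.94%) were at least 1 unit higher at 2 h, against 3.24% of all probes. Among the 35 probes up to 20 numbers away, 8 were, and the median 2 h change was 0.45 units. None of the 179 reached the 2.30 units of Fcgr1, although Mfap5, named after its value was seen, came to 2.24. With the median of the 35 subtracted, a setting chosen after seeing the data, Fcgr1 was at 1.85 units at 2 h, 0.58 at 7 h and 0.48 at 21 h. In the main scaling 2 probe SDs were 0.75, 0.46 and 0.47 units at these times, so the 21 h value was close to the limit. At 7 h 0 of the 179 neighbours were at least 1 unit higher and 1 reached the value of Fcgr1. At 21 h 1 was at least 1 unit higher and 4 reached the value of Fcgr1. The part of this stretch in the 2 h value was not tested.

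**Figure D3:**
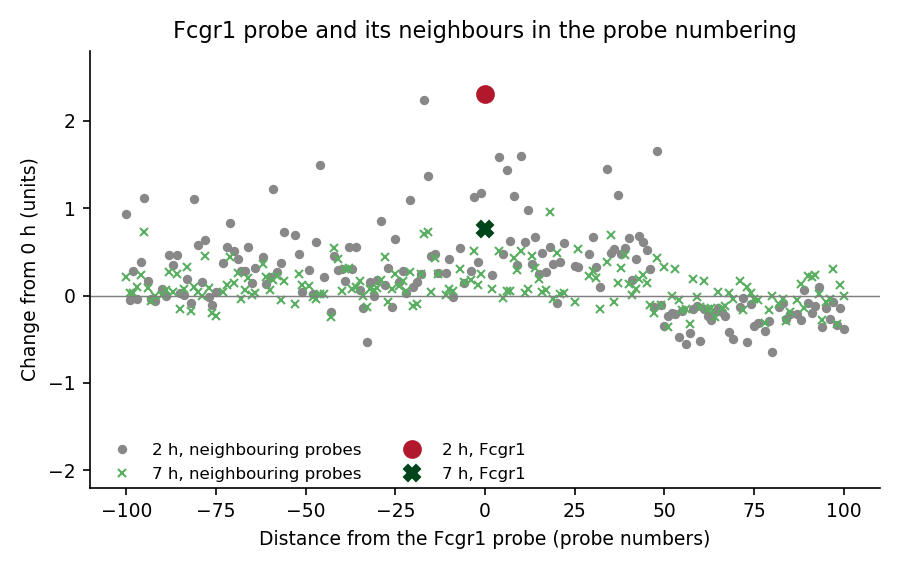
Change from 0 h (vertical axis, units) of the Fcgr1 probe and its 179 measured neighbours at 2 h (filled) and 7 h (crosses), by distance in probe numbers (horizontal axis). Fcgr1 is the highest point at 2 h, at 2.30 units, and 16 neighbours lie at or above 1 unit.

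Fcgr2b, the inhibitory receptor gene, was higher on the 7 h array and close to its starting value on the others. Its ratio was -0.13 before LPS and -0.28, 0.06, 0.73 and 0.11 after 0.5, 2, 7 and 21 h, so 1 array stood apart from the other 4. Its rank was 6649 before LPS, and 7791, 3900, 113 and 2524 on the later arrays. The change from 0 h was -0.15 units at 0.5 h, 0.19 at 2 h and 0.24 at 21 h, each within 2 SD. At 7 h it was 0.86 units, 3.72 SD and place 40. At 7 h 2 of the 4 genes, Fcgr1 and Fcgr2b, were above 2 SD, beside 3.11% of all genes (3.35% were below), and at 21 h 1 was, Fcgr1, beside 4.04% (2.25% below). From 7 h to 21 h the step of Fcgr2b was -0.62 units (-3.80 SD), where 2.52% of genes were below 2 SD and 2.72% above. That step was below 2 SD in every scaling tried, from -0.89 to -0.59 units. The step from 2 h to 7 h was 0.67 units, within 2 SD (1.74), but above 2 SD at 0.97 with quantile normalization and 0.71 with cyclic loess. By their median ratio (0.60) the macrophage markers were also highest on the 7 h array. There Cd53 (0.65 units), Laptm5 (0.55) and Tlr2 (0.73) were above 2 SD and Clec4n (-0.58) below. By other measures these markers were higher at 21 h than at 7 h. Their summed ratio was 5.66 at 21 h and 4.88 at 7 h, and their median change 0.23 and 0.09 units. The part of the macrophage markers in the 7 h values of Fcgr2b and Fcgr1 was not tested. Of 191 probes up to 100 numbers from the Fcgr2b probe, 3 reached its 7 h change, and their median was 0.08 units.

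**Figure D4:**
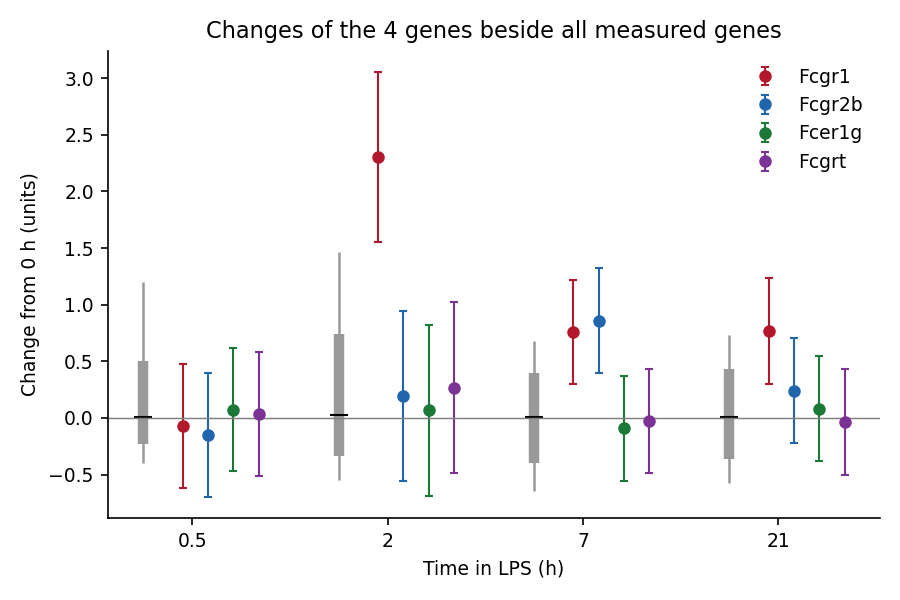
Change from 0 h (vertical axis, units) at each time in LPS (horizontal axis, h) of the 4 genes, with bars of 2 probe SDs. Beside them grey bars span the central 90% (thick) and 98% (thin) of 8692 genes with a tick at the median. Fcgr1 stands clear of 0 at 2, 7 and 21 h and Fcgr2b at 7 h, and Fcer1g and Fcgrt lie within 2 SD of 0 throughout.

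The ratio of Fcgr1 was highest on the 2 h array and that of Fcgr2b on the 7 h array. For Fcgr2b this held in all 5 scalings. For Fcgr1 the 21 h array was highest with quantile normalization (2.805, against 2.43 at 2 h and 2.48 at 7 h), and the 7 h array with cyclic loess (2.86, against 2.53 at 2 h and 2.63 at 21 h). The change of Fcgr1 minus that of Fcgr2b was 0.08, 2.11, -0.10 and 0.52 units in order of time. The SD of such a difference between 2 single probes is 0.53 at 2 h and 0.33 at 7 h and 21 h. Of these 4 differences the one at 2 h passed 2 SD (3.96), and it was 0.51 (1.27 SD) with quantile normalization and 0.16 (0.36 SD) with cyclic loess. At 7 h the change of Fcgr2b was at least that of Fcgr1 in all 5 scalings, within 2 SD of the difference. At 21 h the difference was 0.80 with quantile normalization (2.05 SD) and 0.16 with cyclic loess (0.49 SD). From 7 h to 21 h it was 0.63 units (2.72 SD), with 1.21 (4.47 SD) for quantile normalization and 0.39 (1.70 SD) for cyclic loess.

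Fcer1g, the shared signalling chain, had a high and even ratio. It was 0.63 before LPS and 0.71, 0.70, 0.54 and 0.72 on the later arrays. Its changes from 0 h lay between -0.09 and 0.08 units, all within 2 SD. The 2 h value of 0.07 units turned to -0.44 with quantile normalization and -0.55 with cyclic loess, still within 2 SD. Its rank was 122, 444, 713, 252 and 140 in order of time.

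Fcgrt encodes the heavy chain of the neonatal Fc receptor, which rescues IgG from breakdown in lysosomes. The mean of its 3 probes was 0.00 before LPS and 0.03, 0.27, -0.03 and -0.03 on the later arrays, near the array median except at 2 h. Its changes from 0 h lay between -0.03 and 0.27 units, all within 2 SD. At 2 h the 3 probes were at 0.17, 0.14 and 0.49 units, on the same side of 0. At 21 h they were at -0.38, 0.05 and 0.24 units and disagreed in sign. None of the 4 genes was past 2 SD at 0.5 h, beside 4.3% of all genes above and 0.357% below.

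Genes that carry the signal of activating receptors had median changes close to those over all genes. Of 43 listed kinases, adaptors and enzymes, 13 were measured, with median changes of -0.03, 0.03, 0.02 and -0.03 units at 0.5, 2, 7 and 21 h, next to 0.01, 0.03, 0.00 and 0.01 over all genes. Pla2g4a, which encodes the phospholipase that releases arachidonic acid, was the only member above 2 SD, at 0.84 units at 0.5 h and 0.999 at 2 h. With quantile normalization it was at 0.10 and 0.06, and with cyclic loess at -0.07 at 2 h. Its 21 h value of -0.42 was below 2 SD as deposited (-0.48), with quantile normalization (-0.75) and with cyclic loess (-0.67). Vav3, an exchange factor for Rac GTPases, was the only one below, at -0.49 units at 7 h, and at -0.25, within 2 SD, with the running median removed. Over all genes 4.3%, 4.84%, 3.11% and 4.04% were above in order of time, and 0.357%, 0.23%, 3.35% and 2.25% below. These calls are not read as a trait of the group. Syk, named for its role and not by size, had ratios of 0.94, 0.46, 1.42, 1.25 and 0.97 in order of time. Its probe lay 38 numbers from that of Fcgr1, in the stretch where other probes were also higher at 2 h. Its changes of -0.48, 0.48, 0.31 and 0.03 units lay within 2 SD, and the 0.5 h value lay below 2 SD with quantile normalization (-0.93), cyclic loess (-0.53) and the running median removed (-0.54). The 2 h value turned to -0.49 with quantile normalization and -0.51 with cyclic loess, both within 2 SD.

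Among genes that restrain such signals, 10 of 24 were measured, with median changes of -0.01, 0.06, 0.11 and 0.06 units. Ptpn6, which encodes the phosphatase SHP-1, was above 2 SD at 0.5 h (0.61 units) and 7 h (0.65), and with quantile normalization at 7 h only, with 0.43 at 0.5 h. With the 0.5 h array, or its mean with the 0 h array, as baseline, 0 of the 10 were above at 7 h. Its ratios were 0.27, 0.88, 0.56, 0.92 and 0.54 in order of time. Inpp5d, the SHIP1 gene and the partner of the Fcgr2b product, was named for its role. Its changes of 0.01, 0.10, 0.09 and 0.01 units lay within 2 SD, also on the 7 h array where Fcgr2b was high. In the main scaling the other 8 lay within 2 SD at every time. Above 2 SD were thus 1, 0, 1 and 0 of the 10 in order of time, and 0 were below. The shares of all genes were 4.3%, 4.84%, 3.11% and 4.04% above, and 0.357%, 0.23%, 3.35% and 2.25% below. With 10 genes, these counts are not read as a trait of the group.

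The actin and membrane machinery of the phagocytic cup had 27 of 38 genes measured. Apart from the lists of cell and tissue markers, it was the most fully covered group. Its median change was -0.03, 0.01, 0.09 and 0.13 units in order of time. At 2 h, when Fcgr1 stood highest, all 27 lay within 2 SD, beside 4.84% of all genes above and 0.23% below. With quantile normalization and cyclic loess, Lcp1 (-0.89 and -1.15) and Iqgap1 (-0.85 and -0.71) were below at 2 h. At 7 h 3 were above, Dock2 (0.56 units), Arpc5 (0.51) and Lcp1 (0.51), which encode a Rac activator, an Arp2/3 subunit and the actin bundler L-plastin, and Pip5k1b, a lipid kinase gene, was below at -0.58. Of all genes 3.11% were above and 3.35% below at that time. With the 0.5 h array as baseline 1 of the 27 was above at 7 h and 1 at 21 h. The values of Lcp1 (0.43 and 0.40) and Arpc5 (0.43 and 0.46) lay within 2 SD as deposited and with cyclic loess. Those of Arpc5 (0.40) and Pip5k1b (-0.43) did so after the running median was subtracted. At 21 h Limk2, a kinase that acts on cofilin, was above at 0.68 units and Dock2 at 0.58, and Bin1, which encodes a membrane-bending protein, was below at -0.58 (-0.42 and within 2 SD with the running median removed). The shares of all genes at 21 h were 4.04% above and 2.25% below. At 0.5 h Pip5k1b was above at 0.59 units and the scaffold gene Iqgap1 below at -0.72. Of all genes 4.3% were above and 0.357% below at 0.5 h.

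Of 33 other receptors for particles and microbes, 9 were measured, with median changes of -0.06, 0.02, -0.11 and 0.03 units. Clec4n, the gene of the fungal receptor dectin-2, was above 2 SD at 0.5 h (1.08 units) and below at 7 h (-0.58). With quantile normalization its 0.5 h value was 0.19 units, and its 2 h value of -0.05 was below 2 SD at -0.66 and, with cyclic loess, at -0.84. Dectin-2 also signals through the gamma chain encoded by Fcer1g. Tlr2, which encodes the receptor for bacterial lipopeptides, was above at 7 h only, at 0.73 units, and changed by -0.06, 0.02 and 0.09 units at the other times. Its 7 h call held in all 5 scalings. At 0.5 h 1 of the 9 was above, beside 4.3% of all genes. At 7 h 1 was above and 1 below, beside 3.11% and 3.35% of all genes. At 2 h and 21 h 0 of the 9 were past 2 SD.

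Interferon receptors, their signalling components and interferon-induced genes had 14 of 30 members measured and median changes of -0.02, 0.08, 0.29 and 0.18 units. Above 2 SD were 3, 4, 4 and 3 of the 14 in order of time, beside 4.3%, 4.84%, 3.11% and 4.04% of all genes. None of the 14 was below, beside 0.357%, 0.23%, 3.35% and 2.25% of all genes. With the 0.5 h array as baseline 3, 2 and 2 were above at the 3 later times. The 4 above at 2 h were Gbp2 (2.27 units), Psmb9 (0.996), Ifi204 (0.97) and Irf1 (0.83). With quantile normalization 2 were above, Gbp2 (1.12) and Irf1 (0.65), and Ifi204 turned to -0.31. With cyclic loess 1 was above, Gbp2 (0.66), and 2 were below, with Ifi204 at -0.87. Gbp2, a guanylate-binding protein gene, had changes of -0.02, 2.27, 1.38 and 1.40 units, next to -0.07, 2.30, 0.76 and 0.77 for Fcgr1. Irf1, the gene of an interferon-induced transcription factor, was above 2 SD from 0.5 h on, at 0.64, 0.83, 0.71 and 0.74 units, and was within 2 SD only at 2 h with cyclic loess (0.57). Cxcl10, a chemokine gene, was above at 7 h (1.28) and 21 h (0.90), and at 2 h it was at 0.57 units, within 2 SD. Stat2, the gene of a transcription factor of type I interferon signalling, lay within 2 SD at every time, from -0.01 to 0.37 units, but was above at 21 h (0.49) after the running median was subtracted. Of 18 other cytokines, receptors and transcription factors known to act on Fc gamma receptor levels, 1 was measured. This was the tumour necrosis factor receptor gene Tnfrsf1a, below 2 SD at 0.5 h (-0.63 units) and 21 h (-0.59).

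**Figure D5:**
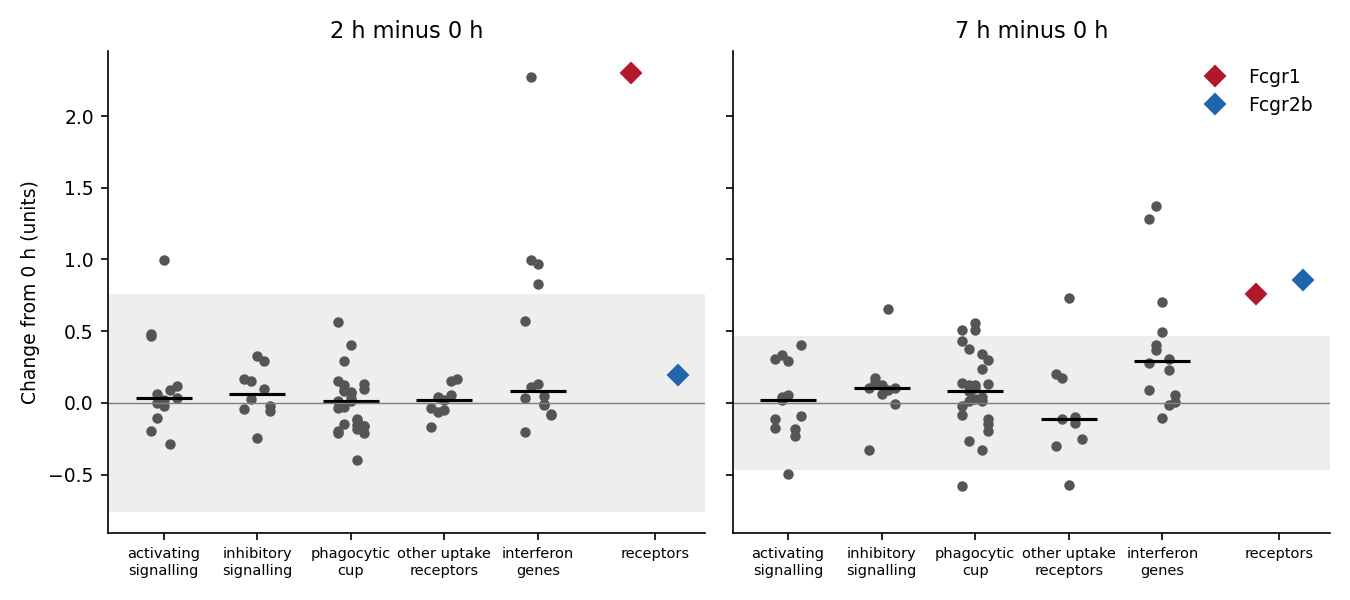
Change from 0 h (vertical axis, units) at 2 h (left) and 7 h (right) of each measured gene of 5 lists (points, with the median as a line) beside Fcgr1 and Fcgr2b (diamonds). The grey band is 2 probe SDs, and all 27 phagocytic cup genes lie inside it at 2 h while 4 of 14 interferon genes lie above it. Over all genes 4.84% were above and 0.23% below at 2 h.

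Fcgr2b is also the Fc gamma receptor of B lymphocytes, so markers of other cell types were read on the same arrays. B cell markers (6 of 12 measured) had medians of -0.12, -0.13, -0.06, -0.04 and -0.13 in order of time, and a summed ratio of -1.28 at 0 h and -0.34 at 7 h. At 7 h 1 of the 6 was above 2 SD, beside 3.11% of all genes, and 0 with the 0.5 h array as baseline. It was Cd79b (0.61 units), a chain of the B cell receptor, whose ratio went from -0.59 at 0 h to 0.03. The other chain, Cd79a, was at 0.22 on both arrays. NK and T cell markers (3 of 13 measured) were at medians of 0.02 at 0 h and 0.96 at 2 h. At 2 h Cd3d (0.94 units) and Gzma (1.19) were above 2 SD, beside 4.84% of all genes. The Gzma call held in all 5 scalings, and that of Cd3d did not with cyclic loess (0.54) or the running median subtracted (0.64). Cd3d was also above at 21 h (0.48 units, 2.08 SD), beside 4.04% of all genes. Neutrophil markers (7 of 14) had medians of -0.24 to -0.12 on the 5 arrays, with 0 past 2 SD at any time. Mast cell and basophil markers (4 of 11) had medians of -0.45 to -0.18, with Mcpt4 below 2 SD at 7 h (-0.69 units). Stromal markers (11 of 12) had medians of -0.41 to -0.18, with Col5a1 below at 7 h (-0.46, and -0.32 within 2 SD after the running median was subtracted) and at 21 h (-0.57). Dendritic cell markers (2 of 11) had medians of -0.11 to 0.10, with 0 past 2 SD. Over all genes 4.3%, 4.84%, 3.11% and 4.04% were above in order of time, and 0.357%, 0.23%, 3.35% and 2.25% below. With so few markers per list, these counts are not read as a trait of any cell type. Since the values are ratios to embryo RNA, they give no absolute level, and the part of other cells in the receptor values was not tested.

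The genes whose profile over the 5 arrays was most like that of each receptor were taken as the 5 with the smallest root mean square difference after each gene's own mean was removed. For Fcgr1 these were Vegfc (0.08 units, Pearson r = 0.999), Lrwd1 (0.18), 2810404M03Rik (0.19), Ms4a8a (0.19) and 2310005C01Rik (0.22), each on 1 probe. Vegfc, a growth factor gene of lymphatic vessels, had changes of -0.08, 2.48, 0.77 and 0.73 units in order of time. Its probe lay at a distance of -614 probe numbers from that of Fcgr1. For Fcgr2b they were Alkbh4 (0.08 units), Tlr2 (0.10), Aplf (0.10), Lrrc40 (0.11) and Mtmr14 (0.12), also on 1 probe each. When genes were ordered by Pearson r instead, 1 of 5 was shared for Fcgr1 (Vegfc) and 1 for Fcgr2b (Alkbh4). By that order the 5 for Fcgr1 also held Crem (r = 0.994), named for its position. Its probe lay 8 numbers from that of Fcgr1, in the stretch where other probes were also higher at 2 h. The points share their arrays and the 0 h culture, and with 5 arrays and 8692 genes such likeness is a description only.

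Of the genes next to the 4 on their chromosomes, few were measured and 2 passed 2 SD, at 1 time each. Shares over all genes were 4.3%, 4.84%, 3.11% and 4.04% above in order of time, and 0.357%, 0.23%, 3.35% and 2.25% below. The count is not read as a trait of the neighbours. Of the 20 annotated neighbours of Fcgr1 on chromosome 3, 10 on each side, 1 was measured, the histone gene H2bc21, at 0.03, 0.17, 0.28 and 0.31 units in order of time. Of those of Fcgr2b on chromosome 1, 1 was measured, the phosphatase gene Dusp12, at 0.00, -0.18, -0.23 and -0.18 units. Around Fcer1g, on the same chromosome, 8 of 20 were measured, and 1 was past 2 SD at 1 time, the apolipoprotein gene Apoa2 (0.48 units at 7 h, and within 2 SD as deposited at 0.40 and with quantile normalization at 0.53). Around Fcgrt on chromosome 7, 7 of 20 were measured, and 1 was past 2 SD, Prrg2, at 0.75 units at 0.5 h.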

How the data were processed

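For each of 5 two-channel arrays the authors deposited a signed log ratio, with no statement of its base, direction, background correction, normalization or filters. With 1 array per time, precision is limited by that number. Probes with a value on all 5 arrays (18391 of 19828) were kept, the median of each array was set to 0, and probes of a gene were averaged. Gene names came from the platform annotation, and only probes with 1 gene were used. The calculation was tested on simulated data with known changes. Members, gene lists and alternatives were chosen with earlier results of these data known. Named were the 4 members, up to 4 genes of each list past 2 probe SDs per time, the 5 most similar profiles and measured chromosomal neighbours. Alternatives were values as deposited, quantile normalization, cyclic loess, a running median over 201 probes removed, the 0.5 h array or the mean of 0 h and 0.5 h as baseline, probes present on the 2 arrays compared, and single probes. Python 3.11.15 (numpy 2.4.6, pandas 2.3.3) and R 4.3.3 with limma 3.58.1 were used.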

Additional observations from a re-analysis of the deposited data

How the results depend on the processing

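No paired analysis was possible because each time had 1 array. Of 136 recomputed changes of the 4 genes, 121 moved by less than the probe SD and 15 by more. Some of the 136 could hardly move. For a gene on 1 probe the single-probe value is the main value, and using probes present on the 2 arrays compared only shifts the array medians. The 121 is therefore not a count of independent checks. With quantile normalization Fcgr1 was at -0.76 units at 0.5 h, 0.70 at 2 h and 1.07 at 21 h, Fcgr2b at 1.16 at 7 h, and Fcer1g at -0.24 at 0.5 h and -0.44 at 2 h. With cyclic loess Fcgr1 was at -0.36 units at 0.5 h, 0.29 at 2 h and 0.39 at 21 h, and Fcer1g at -0.55 at 2 h. With the median of nearby probes subtracted, Fcgr1 was at 1.85 at 2 h and 0.48 at 21 h. Single Fcgrt probes gave -0.28 at 7 h and -0.38 and 0.24 at 21 h. The cause of these moves was not tested. With the 0.5 h array as baseline Fcgr1 was at 0.83 at 7 h and Fcgr2b at 1.01. No called change from 0 h of the 4 genes changed sign under these alternatives, whereas called changes of Ifi204 and Pla2g4a did. The count of genes at least 1 unit higher at 2 h was 236, and 72 with quantile normalization, 95 with cyclic loess, 149 with the 0.5 h baseline, 431 as single probes and 81 at 1.5 units. Of 900 recomputed list counts, 115 moved by more than 1.5 times, 103 of them with 0 to 3 genes in both settings.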
